A study of Mus musculus with 4 samples.

Results

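The gene set held 10 genes of the 32285 in the count tables: Cox6a2, Cox7a1, Ckm, Ckmt2, Myoz2, Lrrc10, Tnnc1, Hamp, Csrp3 and Fabp3. They were taken as a named list of genes of cardiac energy supply and of the cardiac sarcomere, with the iron hormone gene Hamp, and all 10 had a row in each table. The set was selected with earlier values of the same sections in view, namely the level in each section, the level in spots rich in Myl7 and the ratio to Myl7, V against NV, so these values are given as a description. The members went into the fits across all genes, and from those fits their fold changes and the number called are printed as values that carry no evidence of their own. Visium spatial transcriptomics counts unique molecular identifiers (UMIs, 1 for each captured transcript) in spots of a lung section. A spot is a small region that can hold several cells of different types. Levels are given in CPM, the UMIs of a gene for every 1000000 UMIs of the section or of the named spots.

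C57BL/6J mice were either exposed to e-vapor of flavored vape juice from JUUL pens (Vaped, V) or kept as unexposed controls (Non-Vaped, NV). Exposure lasted 9 weeks, with sessions of 4 h on 5 days of each week in whole body chambers. Each group had 1 male and 1 female, and 1 section per mouse was profiled, so n = 2 sections per group over whole sections. In comparisons within spots rich in Myl7 or in fat markers, and in most ratios to Myl7, V female is the only V section. Ages are not given in the labels. With 2 sections against 2, an exact permutation test of a single value cannot give a two-sided p below 0.33.

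In mice the heart muscle of the left atrium continues along the pulmonary veins into the lung, so a lung section can hold cardiac muscle with an atrial gene programme, marked by the atrial myosin light chain Myl7. Cardiac muscle burns fatty acids and carries energy from the mitochondria to the myofibrils as phosphocreatine, and several steps use isoforms that are found mainly in heart and skeletal muscle. Cox6a2 and Cox7a1 encode the muscle isoforms of subunits of cytochrome c oxidase, the last complex of the respiratory chain. Ckmt2 and Ckm encode the mitochondrial and the cytosolic creatine kinase of striated muscle, and Fabp3 the heart-type fatty acid-binding protein. Myoz2 and Csrp3 encode Z-disc proteins, Tnnc1 the calcium-binding troponin C of heart and slow muscle, and Lrrc10 a leucine-rich repeat protein of cardiomyocytes. Hamp encodes hepcidin, the hormone that causes ferroportin to be degraded and so limits iron export from cells. Hepcidin is made mainly by the liver and is also known in heart. Cox7a1, Ckmt2 and Fabp3 are also known in brown fat.

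The sections were not alike in the tissue they held. They held between 473 and 2053 spots and between 6957392 and 34308556 UMIs, and pairs of sections shared between 277 and 1167 spot barcodes, which name positions on the slide. Spots were called Myl7-rich where Myl7 reached 2000 CPM with at least 5 Myl7 UMIs. There were 286 Myl7-rich spots (34.0%) in NV male, 78 (16.5%) in NV female and 216 (10.5%) in V female. The V male section had 0 of 1565, an exact 95% binomial interval that ends at 0.235%. The summed level of 9 cardiac reference markers was 15223 CPM in NV male, 16020 in NV female and 8685 in V female, against 23.7 in V male, so the V male section stood apart. Of the 4 ventricular markers Irx4 was at 0 UMIs in all 4 sections and Myl2 held 4 to 8 UMIs. Myl3 was at 38.1 CPM in NV male, 37.7 in NV female, 0 UMIs in V male and 19.3 in V female, and was 4.29, 7.44 and 5.96 times as high in Myl7-rich spots as in the others of NV male, NV female and V female. Myh7 was at 7.996 to 12.7 CPM in all 4 sections. The skeletal muscle marker Myh4 was at 0 UMIs in all 4, and the 8 skeletal muscle markers summed to 5.1 to 10.9 CPM. The cardiac label thus matched the cardiac reference markers in 3 of the 4 sections. Alveolar markers were present in all 4 sections.

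Where the members sit in the genome was taken from GENCODE M21 on GRCm38. Cox6a2 (chr7:128205435-128206387), Hamp (chr7:30942368-30944032) and Csrp3 (chr7:48830398-48848033) lie on the minus strand of chromosome 7, and Cox7a1 (chr7:30184144-30186078) and Ckm (chr7:19404776-19422841) on its plus strand. Ckmt2 (chr13:91853387-91876885) and Myoz2 (chr3:123006206-123035015) lie on the minus strand, and Lrrc10 (chr10:117045341-117046768), Tnnc1 (chr14:31208312-31211729) and Fabp3 (chr4:130308595-130315463) on the plus strand. Another annotated gene overlaps 7 of the 10, among them Itgad over Cox6a2, Nisch over Tnnc1 and Zcchc17 over Fabp3, each on the opposite strand. Itgad held 0.862 to 3.61 CPM over the sections, Nisch 215 to 261 and Zcchc17 25.9 to 30.3. The strand setting of the counting is not given in the sources used here, and the part of these genes in the members' counts was not tested. Hamp has a tandem neighbour, Hamp2 (chr7:30922372-30924681). Aligned end to end, the first listed transcript of Hamp (410 bases) and that of Hamp2 (437 bases) were identical at 94.6% of 410 aligned bases. Reads shared by both could be split, so their separate counts are uncertain.

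Promoters of 9 of the 10 members, 250 bases before to 50 bases after the transcript start, were found in the RefSeq table for GRCm38.p6. Printed here are the windows of Cox7a1, Csrp3 and Hamp. The ratio to Myl7 differed most between V female and the NV sections for Cox7a1 and least for Csrp3. Hamp is the iron hormone gene of the set. Capitals mark matches on either strand to the core bound by GATA factors, whose forms are AGATAA and, with another start, TGATAA, and to the TATA box, whose forms are TATAAA and, with another end, TATATA. The transcript starts at base 251 of each run.
Cox7a1, chr7:30183921-30184220, plus strand: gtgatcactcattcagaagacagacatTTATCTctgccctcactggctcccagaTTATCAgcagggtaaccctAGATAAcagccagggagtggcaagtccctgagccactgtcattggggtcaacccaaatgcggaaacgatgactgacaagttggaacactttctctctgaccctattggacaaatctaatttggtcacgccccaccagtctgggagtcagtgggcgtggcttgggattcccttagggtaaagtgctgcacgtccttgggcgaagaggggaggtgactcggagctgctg
Csrp3, chr7:48848002-48848301, minus strand: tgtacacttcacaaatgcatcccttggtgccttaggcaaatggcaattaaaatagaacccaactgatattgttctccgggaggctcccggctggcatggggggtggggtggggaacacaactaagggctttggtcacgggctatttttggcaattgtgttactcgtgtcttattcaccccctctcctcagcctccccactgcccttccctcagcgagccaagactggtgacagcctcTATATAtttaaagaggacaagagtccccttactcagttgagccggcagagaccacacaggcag
Hamp, chr7:30943980-30944279, minus strand: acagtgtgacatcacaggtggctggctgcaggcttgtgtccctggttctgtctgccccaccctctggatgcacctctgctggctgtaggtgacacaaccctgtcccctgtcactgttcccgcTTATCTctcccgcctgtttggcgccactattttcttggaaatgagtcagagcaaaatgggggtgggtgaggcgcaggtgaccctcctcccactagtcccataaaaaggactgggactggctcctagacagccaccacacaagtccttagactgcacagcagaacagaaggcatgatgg
The Cox7a1 window held 3 GATA core matches, the Hamp window 1 and the Csrp3 window a single TATA match. Among all 32851 promoter windows of the same length, 18.6% held a GATA core match and 17.1% a TATA match. Of the members, Cox7a1, Hamp and Lrrc10 held the GATA core, and Ckm, Csrp3, Lrrc10, Myoz2 and Tnnc1 a TATA match. The E-box CAGCTG was found in Ckm, Ckmt2 and Myoz2 (16.3% of all windows), the MEF2 motif in Myoz2 only among the 9 (3.19%), and neither the CArG box (1.63%) nor AAGGTCA (4.72%) in any of the 9. A match is a run of letters and not a shown binding site.

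Over whole sections, the members followed the cardiac markers. For 9 of the 10, all but Cox7a1, both V sections lay below both NV sections, where 13.9% of 14881 genes did so. These are values that selected the members, and nothing is read from that count. In spots, fewer cardiac muscle cells and less RNA per cell cannot be told apart. The reference gene Myl7 itself was at 3596 CPM in NV male, 3875 in NV female, 2.02 in V male (24 UMIs) and 1951 in V female.

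Among the respiratory chain subunits, Cox6a2 was at 1142 CPM in NV male, 1225 in NV female, 35.5 in V male and 550 in V female. The V sections did not reach the NV sections, and V male lay lowest. Cox7a1 was at 541 in NV male, 642 in NV female, 4.04 in V male and 833 in V female. Here the groups overlapped: V female held the highest level of the 4 sections and V male the lowest.

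Both creatine kinases of striated muscle put the 4 sections in 1 order, with NV female highest and V male lowest. Ckm was at 308 CPM in NV male and 346 in NV female, and at 0.505 in V male and 197 in V female. Ckmt2 was at 253 in NV male and 259 in NV female, and at 0.0842 in V male, which is 1 UMI, and 160 in V female. V female thus held 1.66-fold less Ckm and 1.60-fold less Ckmt2 than the NV mean. Fabp3, which carries fatty acids in the cytosol, was at 646 in NV male, 555 in NV female, 27.7 in V male and 457 in V female, the smallest gap between V female and the NV mean among the 9 members that were lower there (1.31-fold).

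Tnnc1, Csrp3 and Myoz2, of the sarcomere and Z-disc, had closely similar levels in both NV sections. Tnnc1 was at 418 CPM in NV male, 415 in NV female, 4.46 in V male and 202 in V female. Csrp3 was at 566, 542, 0.253 and 281 in the same order, the V male value being 3 UMIs. Myoz2 was at 140, 142, 0.0842 (1 UMI) and 64.5. Lrrc10 was the scarcest member, at 12.1 in NV male, 18.3 in NV female and 6.82 in V female, with 0 UMIs in V male, where 3 UMIs would be 0.253 CPM. In each of these 4 genes V female was lower than the NV mean, by 1.97-fold for Csrp3, 2.06-fold for Tnnc1, 2.19-fold for Myoz2 and 2.23-fold for Lrrc10.

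The hepcidin gene Hamp was at 417 CPM in NV male, 535 in NV female, 0.589 in V male (7 UMIs, exact 95% Poisson interval 0.237 to 1.21) and 214 in V female. Its order over the sections was that of Myl7, and V female held 2.23-fold less than the NV mean, beside 1.92-fold less Myl7.

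**Figure D1:**
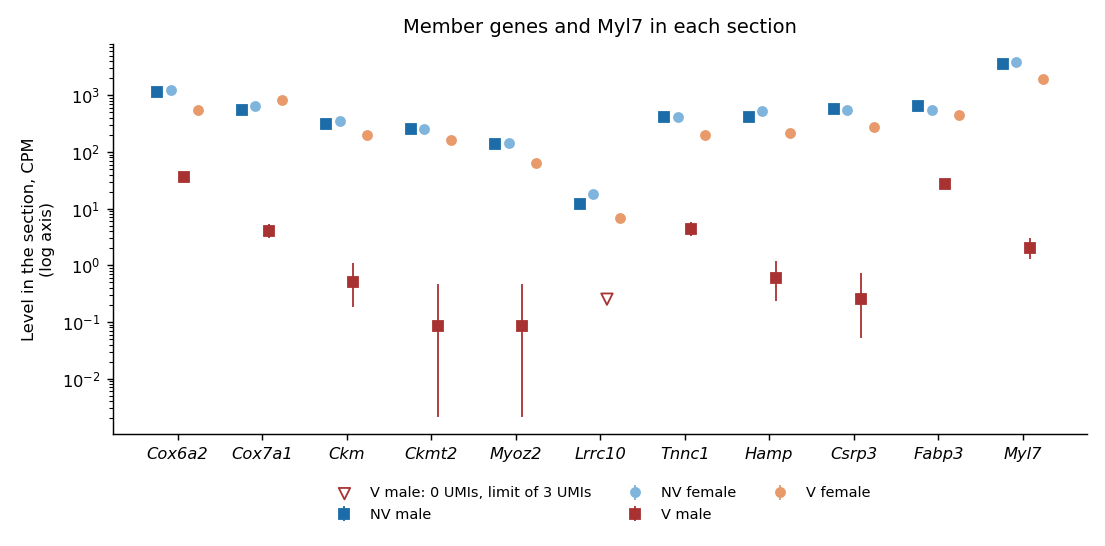
Levels of the 10 members and of Myl7 in CPM of each section on a log axis, with squares for male and circles for female sections, blue for NV and red or orange for V. Bars are exact 95% Poisson intervals for counting error, and the open triangle marks the limit of 3 UMIs for Lrrc10 in V male (0 UMIs). Every V male value lies far below the other sections, and Cox7a1 is the only member for which V female (833) lies above both NV sections.

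What remained in V male was not the same share of each gene. Cox6a2 (422 UMIs) and Fabp3 (329 UMIs) were seen in 20.4% and 17.1% of its 1565 spots, with at most 9 and 4 UMIs in a spot. Cox7a1 (48 UMIs) and Tnnc1 (53 UMIs) were seen in 2.81% and 3.13% of spots. The other 6 members held 0 to 7 UMIs each in this section, beside 24 UMIs of Myl7. Which tissue of the V male section these UMIs came from was not tested.

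In the edgeR quasi-likelihood test over whole sections, 0 of 14570 genes (0%) were called between V and NV where a call needed an adjusted p below 0.05 and a log2 change beyond 0.25 in either direction, and 248 had an unadjusted p under 0.05. DESeq2's Wald test called 8 genes. None of the members was among the calls of either tool, from which nothing is read, since the contrast selected them. Their log2 fold changes (V minus NV) had a median of -1.91, beside 0.03 over all genes tested. They ran from -2.07 (SE 2.17) for Hamp to -0.41 (SE 2.02) for Cox7a1, and Myl7 was at -1.85 (SE 2.44). The spread between both V sections set these errors. Without V male, edgeR called 21 of 15083 genes (0.139%) and no member, and the log2 fold change of Cox7a1 was 0.57. Without V female, it called 811 of 14831 genes (5.47%). All 10 members were among them, with a median of -9.60, which restates the near absence of cardiac transcripts in V male that selected them. The lone V section is assumed in these fits to vary like the NV sections.

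Within a section, all 10 members were enriched in the Myl7-rich spots of each of the 3 sections that had them. A ratio of 2 or more over the remaining spots was reached in 30 of 30 cases, where 4.41% of 11432 genes reached it in NV male, 5.15% of 10865 in NV female and 4.33% of 13976 in V female. The spots were chosen on Myl7 and the members partly on their level in them, so this count is a description. Hamp was at 828 CPM in Myl7-rich spots against 202 in the others in NV male, at 1393 against 199 in NV female and at 730 against 100.1 in V female. Myoz2 was the member with the highest ratio in both female sections, 10.1 in NV female and 11.1 in V female. Cox7a1 had the highest ratio but for Myoz2 in NV female (9.003) and the highest in NV male (5.83), yet the lowest in V female (2.17), where spots that were not Myl7-rich still held 688 CPM against 203 in NV male and 197 in NV female. Fabp3 was next lowest in V female (4.10), beside 4.14 in NV male and 7.69 in NV female.

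Spots outside the Myl7-rich set were not free of cardiac transcripts in the 3 sections with cardiac muscle. Myl7 was at 1381 CPM there in NV male, 1115 in NV female and 776 in V female, and at 2.02 in V male. Median depth differed too: the Myl7-rich spots held a median of 8545 UMIs in NV male, 18010 in NV female and 27830 in V female. Whether the transcripts outside came from muscle within these spots or from RNA that had spread over the tissue was not tested.

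To compare the members at equal amounts of cardiac muscle RNA, each was divided by Myl7 of the same section. The unit is UMIs of the gene per 100 Myl7 UMIs, and NV values are the mean ± SD of 2 sections. V male is left aside, since its ratios rest on 24 Myl7 UMIs and ran from 0 for Lrrc10 to 1758 for Cox6a2. Seen this way, most members of V female came close to NV. Csrp3 was at 14.9 ± 1.23 in NV and 14.4 in V female, and Lrrc10 at 0.404 ± 0.094 and 0.350. For both, V female lay between NV male and NV female. This did not hold with other denominators: V female lay below both NV sections for both genes per summed cardiac marker UMIs (Csrp3 3.23 against 3.72 and 3.39 per 100) and per Tnni3 UMIs (33.2 against 42.6 and 35.1). The other 8 members were outside the range of the NV sections in V female, as were 95.6% of 14881 genes.

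Below the NV range lay Cox6a2, Myoz2, Tnnc1 and Hamp. Cox6a2 was at 31.7 ± 0.085 in NV and 28.2 in V female, a ratio of 0.890. Myoz2 was at 3.78 ± 0.168 and 3.31, and Tnnc1 at 11.2 ± 0.629 and 10.4. Hamp had 11.6 in NV male, 13.8 in NV female and 10.9 in V female. The difference between both NV sections in Hamp was larger than that between V female and NV male. Per 100 Tnni3 UMIs it was smaller, with Hamp at 31.4 in NV male, 34.6 in NV female and 25.3 in V female.

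Above it lay Cox7a1, Ckm, Ckmt2 and Fabp3, so that members of energy supply fell on both sides of the NV range. Cox7a1 had 15.1 in NV male, 16.6 in NV female and 42.7 in V female, which is 2.70 times the NV mean. Fabp3 had 18.0 in NV male, 14.3 in NV female and 23.4 in V female, 1.45 times the NV mean. The creatine kinases differed less, with 8.75 ± 0.272 in NV and 10.1 in V female for Ckm. Ckmt2 was at 6.86 ± 0.254 and 8.22. Their place depended on the denominator. Per 100 Tnni3 UMIs, Ckmt2 of V female (18.98) lay between NV female (16.76) and NV male (19.06). Ckm of V female (23.26) was then close to NV male (23.18), with NV female at 22.44. Per Myl7 with V male included, both V sections lay above both NV sections for 3 members (Cox7a1, Ckm and Fabp3) and below for 0. Because V male had almost no Myl7, 92.5% of 14881 genes lay above and 0.108% below in the same way, so the count says nothing particular of the members.

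**Figure D2:**
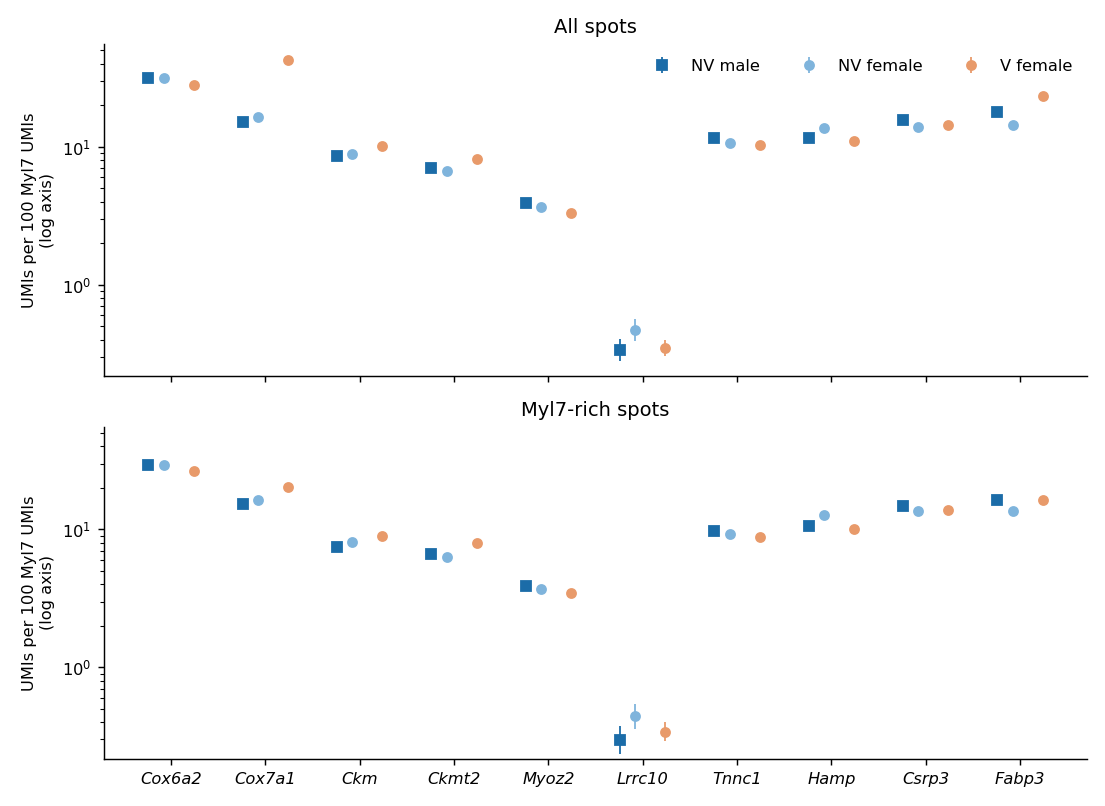
UMIs of each member per 100 Myl7 UMIs on a log axis in NV male, NV female and V female, over all spots (top) and over Myl7-rich spots (bottom), with exact 95% intervals for counting error. The V female point of Cox7a1 stands at 42.7 over all spots and at 20.4 in Myl7-rich spots, above both NV sections, while Csrp3 and Lrrc10 lie within the NV range in both panels.

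Restricting the count to Myl7-rich spots narrowed the largest gaps. Cox7a1 was then at 15.2 per 100 Myl7 UMIs in NV male, 16.3 in NV female and 20.4 in V female, 1.30 times the NV mean in place of 2.70. Fabp3 was at 16.5 in NV male, 13.5 in NV female and 16.5 in V female, with V female higher than NV male only in the next digits (1.10 times the NV mean). Ckm (1.15 times) and Ckmt2 (1.23 times) stayed about where they were over all spots, and Cox6a2 (0.904 times), Tnnc1 (0.926 times), Myoz2 (0.917 times) and Hamp (0.857 times) remained below the NV range. Csrp3 and Lrrc10 again lay within it. V female was thus outside the NV range for 8 of 10 members in these spots, where 52.8% of 11617 genes were outside, and the count is a description.

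Outside the Myl7-rich spots, the ratio to Myl7 moved apart for Cox7a1 and Fabp3 in V female. The ratio outside divided by that inside was 4.34 for Cox7a1 in V female, against 0.970 in NV male and 1.09 in NV female. For Fabp3 it was 2.30, against 1.37 and 1.28. The other 8 members had values between 0.845 and 1.54 in V female, where both NV sections ran from 0.970 to 1.76 for the same genes. In NV, Tnnc1 had the highest values of the 10 members, 1.75 in NV male and 1.76 in NV female.

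Summed over Myl7-rich spots and tested with edgeR, V female alone against the NV sections, 68 of 13001 genes (0.523%) were called, with 386 at an unadjusted p under 0.05. V male could not enter, and the lone V section is assumed to vary like the NV sections. DESeq2's Wald test called 15 genes. No member was called by either tool, and nothing is read from this, since the level in these spots was among the values that selected the members. The members' log2 fold changes had a median of -0.41, beside -0.02 over all genes tested. They ran from -0.60 (SE 0.62) for Hamp to 0.01 (SE 0.65) for Cox7a1, with Myl7 at -0.35 (SE 0.88). These spots were not alike in fat transcripts. The brown fat markers Ucp1, Elovl3 and Otop1 had log2 fold changes of 10.97, 6.26 and 3.21 in them. Cidec, Slc36a2 and Adrb3 had 0.26, 0.29 and 0.43. The number of genes called depended on how the spots were chosen, with 176 at 5000 Myl7 CPM or more and 167 at 1000 Tnni3 CPM or more.

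Fat was measured in the same sections. A set of 6 brown fat markers (Ucp1, Elovl3, Otop1, Slc36a2, Cidec and Adrb3) was summed, and spots at 2000 CPM or more that were not Myl7-rich were called adipocyte-marker-rich. They numbered 161 in V female, 24 in NV female, 2 in NV male and 0 in V male. Ucp1, the uncoupling protein that defines brown fat, held 29484 UMIs in V female but 7 in NV female, 4 in V male and 1 in NV male. The NV female spots were led by Cidec, a lipid droplet gene of white and brown fat, at 2131 CPM in them.

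In V female, Cox7a1 was at 1789 CPM in adipocyte-marker-rich spots and at 324 in spots rich in neither marker set, 5.52-fold. Its level there exceeded that in the Myl7-rich spots (1492). Fabp3 was at 542 against 212, 2.56-fold. The other 8 members had ratios between 0.769 (Cox6a2) and 1.06 (Myoz2), with Ckmt2 at 0.983, and Hamp was at 90.9 against 103. Across all 13976 genes of V female, 6.12% were at 2-fold or more. In NV female, where 6.51% of 10865 genes reached 2-fold, none of the members did, with Cox7a1 at 241 against 189 (1.27-fold) and Fabp3 at 201 against 191 (1.05-fold). The muscle and brown fat subunit Cox8b, named here after its values were seen, was at 3508 against 541 in V female (6.48-fold) and at 1041 against 191 in NV female (5.46-fold).

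**Figure D3:**
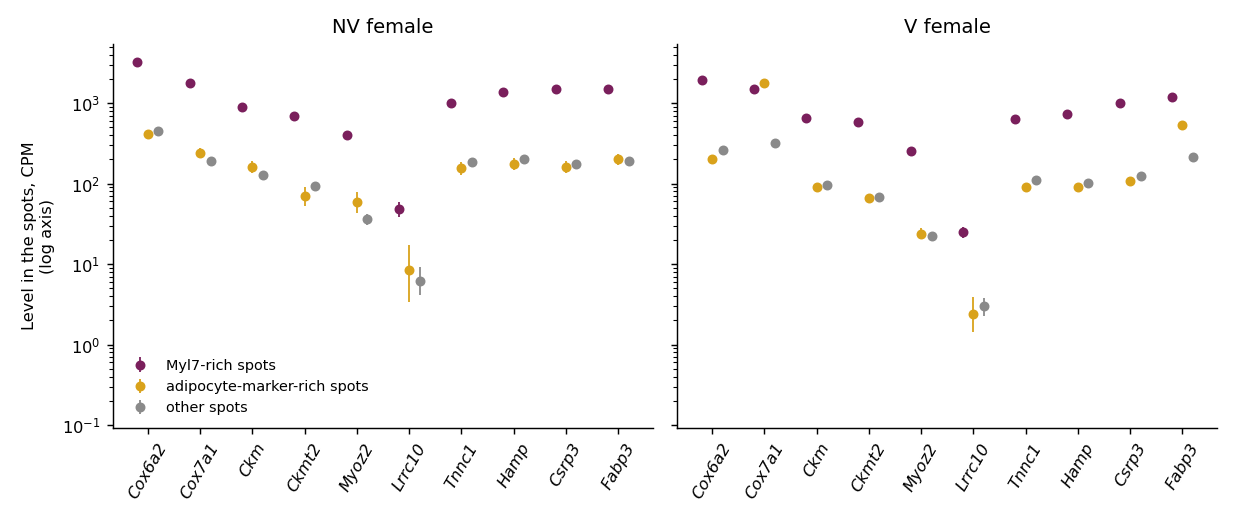
Levels of the members in CPM on a log axis in Myl7-rich, adipocyte-marker-rich and other spots of NV female and V female, with exact 95% Poisson intervals for counting error. In V female Cox7a1 is higher in adipocyte-marker-rich spots (1789) than in Myl7-rich spots (1492), and Fabp3 lies between both other classes (542), whereas the remaining members are high in Myl7-rich spots alone.

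A split of V female by Ucp1, chosen after the data were seen, gave the same 2 genes. Outside the Myl7-rich spots, Cox7a1 was at 192 per 100 Myl7 UMIs in the 365 spots with 500 or more Ucp1 CPM, and at 39.4 in the 820 spots between 200 and 500 and 40.2 in the 652 spots below 200. Fabp3 was at 61.9, 26.4 and 26.7. Hamp was at 12.8, 12.8 and 13.2 and Csrp3 at 15.2, 15.2 and 16.2. Among Myl7-rich spots, Cox7a1 was at 27.1, 18.7 and 18.0 in the same classes, so in the 51 with the least Ucp1 it was nearer to the NV sections (15.2 and 16.3). The gap stayed in spots rich in neither marker set. Cox7a1 was at 41.0 there in V female against 14.7 in NV male and 17.4 in NV female. Fabp3 was at 26.7 there against 22.5 and 17.6. These spots were not free of fat transcripts. In them the 6 brown fat markers summed to 647 CPM in V female, 386 in NV female and 129 in NV male. Ucp1 was at 300 CPM in V female and 0.480 in NV female. The share of Cox7a1 and Fabp3 in V female that came from fat was not tested.

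Along the Myl7 level of the spots, the members were highest where Myl7 was highest, with Cox7a1 in V female flat or falling at the low end. From spots with 500 to 1000 Myl7 CPM to spots with 10000 or more, Hamp went from 155 to 1289 CPM in NV male, from 191 to 1698 in NV female and from 94.3 to 996 in V female. Csrp3 went from 195 to 1839, from 154 to 1891 and from 111 to 1432. The spots below 500, 46 in NV female and 426 in V female, did not always continue these lines. In NV male, where they numbered 20, Hamp was at 186 (6 UMIs), Csrp3 at 403 (13 UMIs) and Cox6a2 at 651 (21 UMIs). Each value was above the level at 500 to 1000 but rests on these few UMIs. Cox7a1 went from 167 to 1874 in NV male and from 166 to 2351 in NV female, but from 635 to 2085 in V female, where it was at 934 below 500 and at 628 from 1000 to 2000. The 3 sections thus lay close together in Cox7a1 at the highest Myl7 and far apart at low Myl7. Ucp1 moved the other way in V female, from 886 to 261 CPM over the same ranges.

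**Figure D4:**
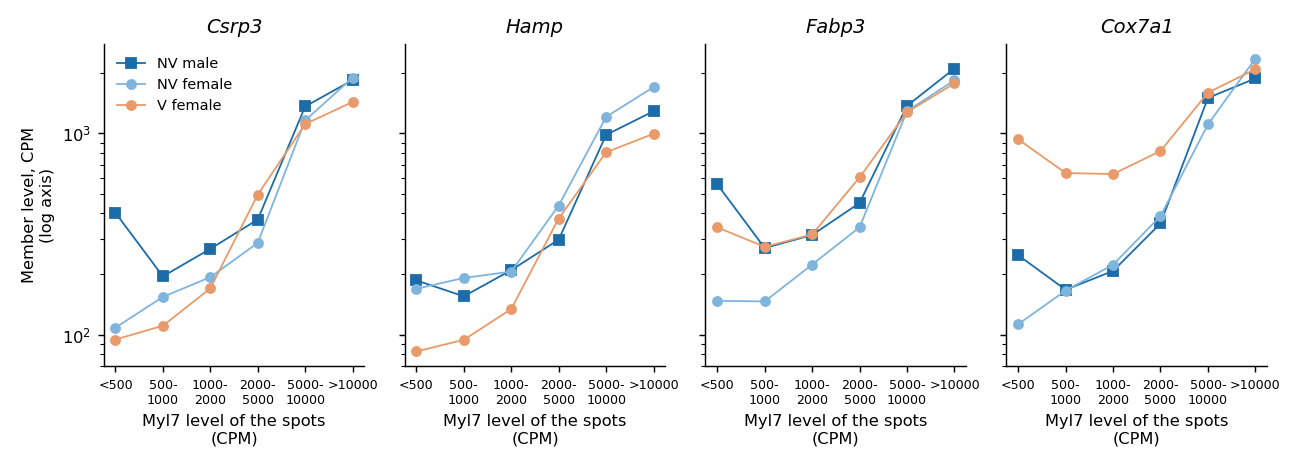
Levels of Csrp3, Hamp, Fabp3 and Cox7a1 (CPM, log axis) in spots grouped by their Myl7 level in NV male, NV female and V female, 1 point per section and range. The curve of Cox7a1 in V female starts at 934 below 500 Myl7 CPM, lies at 635 for 500 to 1000, above both NV sections (167 and 166), and meets them at the highest range.

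Across spots, the genes most like Hamp were cardiac muscle genes. Pearson correlations of log-scaled counts were averaged over the 3 sections with cardiac muscle (842, 473 and 2053 spots), among 5845 genes with at least 200 UMIs in each. The 5 highest for Hamp outside the set were Myl7 (0.517), the cardiac troponin I gene Tnni3 (0.507), the myoglobin gene Mb (0.498), the myosin heavy chain gene Myh6 (0.491) and the light chain gene Myl4 (0.487). For the sum of the members they were Myh6 (0.704), Myl7 (0.692), the mitochondrial mt-Co1 (0.663), Sln (0.658) and Tnni3 (0.651). The correlation of Cox7a1 with Myl7 was 0.603 in NV male, 0.667 in NV female and 0.429 in V female, and that of Hamp 0.524, 0.512 and 0.515. All genes of a spot share its depth, and spots of a section are not replicates, so these are descriptions.

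For several members a second gene of the same family does the same work in other tissues, and the share of the muscle form shows how far it prevails. In Myl7-rich spots Cox6a2 made up 87.2% of Cox6a2 and Cox6a1 UMIs in NV male, 85.8% in NV female and 70.7% in V female. Over all spots the share was 74.3%, 65.5% and 31.2%, and 7.51% in V male. Cox6a1 was also high in adipocyte-marker-rich spots, at 2961 CPM against 759 in spots rich in neither marker set of V female. In NV female it was at 1503 against 528. The 6 brown fat markers summed to 154, 478 and 875 CPM in the Myl7-rich spots of NV male, NV female and V female. The part of fat in these shares was not tested. The level of the widely expressed Cox6a1 in Myl7-rich spots was 337 CPM in NV male, 533 in NV female and 803 in V female. Its log2 fold change there was 0.89 (SE 0.53) and was not called by edgeR, although 2 partner isoforms, Cox6a1 and Fabp4, were called with spots at 5000 Myl7 CPM or more.

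Cox7a1 made up 59.7%, 60.6% and 58.7% of Cox7a1 and Cox7a2 UMIs in the Myl7-rich spots of NV male, NV female and V female, and 1.24% in V male over all spots. In the adipocyte-marker-rich spots its share was 53.9% in V female and 20.4% in NV female. Ckm made up 83.8%, 88.3% and 84.4% of Ckm and Ckb UMIs in Myl7-rich spots, and Ckmt2 at least 98.6% of Ckmt2 and Ckmt1 UMIs in each of the 3 sections. Csrp3 made up 81.7%, 88.7% and 79.4% of the 3 Csrp genes. The share of Fabp3 beside Fabp4 and Fabp5 ran from 58.3% in NV male to 30.9% in NV female and 25.9% in V female, while Fabp4, the adipocyte form, was at 719, 3089 and 3167 CPM in these spots.

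For Tnnc1 and Myoz2 the paralogs were nearly absent. Tnnc2, the troponin C of fast skeletal muscle, held 0 to 6 UMIs in a section, Myoz1 with Myoz3 0 to 8. Hamp made up 98.7% of Hamp and Hamp2 UMIs in NV male, 99.1% in NV female and 98.8% in V female, within the uncertainty of counting such near-identical transcripts. Of the 13 partner isoforms, 10 could be tested, and 0 were called over whole sections or in Myl7-rich spots by edgeR, with 0 and 1 (Csrp2) at an unadjusted p under 0.05. Without V female, Ckb and Hamp2 were called over whole sections.

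**Figure D5:**
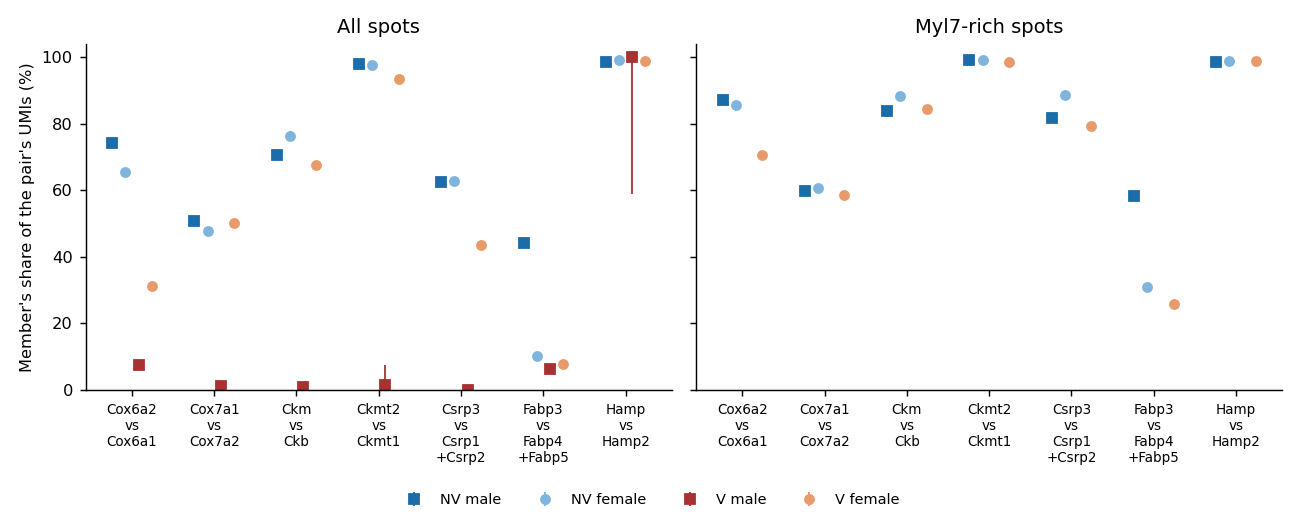
Share of the member's UMIs in the sum of member and partner genes (%) over all spots (left) and in Myl7-rich spots (right), with exact 95% binomial intervals for counting error. Among Myl7-rich spots Cox6a2 has a lower share in V female (70.7%) than in NV male (87.2%) and NV female (85.8%), the Fabp3 share differs mostly between NV male (58.3%) and the female sections (30.9% and 25.9%), and the shares of Cox7a1 and Hamp lie close together there.

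Of the 19 other genes of muscle fuel and energy, edgeR called 0 over whole sections and 0 in Myl7-rich spots, with 0 at an unadjusted p under 0.05 in both, and DESeq2 called 0. Without V female, 14 were called over whole sections. Their log2 fold changes had a median of -0.45 over whole sections and of -0.05 in Myl7-rich spots. Mb, the oxygen store of muscle, was at 1639 CPM in NV male, 1521 in NV female, 0.505 in V male and 901 in V female. Slc25a4, the ADP/ATP carrier of heart and muscle, was at 1132, 1252, 244 and 846, and the fatty acid transporter Cd36, which endothelium also makes, at 886, 962, 1562 and 838. V female lay below both NV sections for 9 of the 19 and above both for 6 (42.1% and 26.7% of 14881 genes), namely Acsl1, Cox8b, Cpt1b, Idh3a, Ldhb and Slc2a4. Cox8b was at 390 in NV male, 621 in NV female, 8.33 in V male and 1308 in V female, the same order of sections as Cox7a1.

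Of 20 genes of the sarcomere and Z-disc, 0 were called in either fit by edgeR or DESeq2, with 0 at an unadjusted p under 0.05 in the edgeR fits. Without V female, 17 of the 20 were called over whole sections. V female lay below both NV sections for 19 of them and above both for 0, beside the 42.1% and 26.7% of all genes. Myh6 was at 2266 CPM in NV male, 2791 in NV female, 0.337 in V male and 1569 in V female. Actc1, the cardiac actin, was at 1762, 1609, 3.37 and 1054, and Tpm1, a tropomyosin that other cells also make, at 1895, 1623, 265 and 1117. The median log2 fold change was -1.51 over whole sections and -0.15 in Myl7-rich spots.

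Of 21 genes of iron handling, the pathway of Hamp, 17 could be tested and 0 were called by edgeR or DESeq2, with 0 at an unadjusted p under 0.05 in the edgeR fits. Their median log2 fold change was 0.01 over whole sections and -0.03 in Myl7-rich spots, against -2.07 and -0.60 for Hamp. The ferritin genes Fth1 and Ftl1, which store iron, were at 2973, 2899, 3806 and 3073 and at 1012, 1234, 1242 and 1261 CPM in NV male, NV female, V male and V female. Trf, the plasma iron carrier transferrin, was at 331, 667, 272 and 426. The ferroportin gene Slc40a1, on whose protein hepcidin acts, was at 11.5, 10.3, 14.8 and 8.63. Hjv, a co-receptor in the signal that turns on hepcidin and a gene known in striated muscle, was at 33.1, 36.8, 0.337 and 23.2, so its order over the sections was close to that of the muscle genes, and without V female it was the 1 called gene of this list. Slc40a1 and Hjv are named here after their values were seen.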

How the data were processed

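The authors deposited raw UMI counts of every gene in every spot over tissue for 4 Visium lung sections, 1 from each mouse. Per the labels and the study's methods, they were made with Space Ranger on the 10x mouse reference for mm10 (GRCm38). Seurat 4.0.3, named in the submitters' processing notes, is not part of these counts. No column was left unmapped. Gene positions came from GENCODE M21 and promoters from RefSeq, both on GRCm38. The members and the gene lists were chosen with earlier results of these data known. A planned set of spots rich in brown fat markers is called adipocyte-marker-rich, since its markers in NV female were led by Cidec.

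Counts were summed over all spots, or Myl7-rich spots, of a section and tested with edgeR 4.0.16 (quasi-likelihood test, TMM scaling, filterByExpr, Benjamini-Hochberg adjustment over all genes tested, adjusted p under 0.05 and log2 fold change over 0.25 in size). The SE printed with an edgeR log2 fold change is the size of that change divided by the square root of the test's F statistic. DESeq2 1.42.0 was an alternative. Replicates are separate mice. Levels carry exact Poisson intervals and ratios and shares exact binomial intervals at 95%, which cover counting error only. A count of 0 was read as an upper limit of 3 UMIs per section. Sections held 6957392 to 34308556 UMIs. In simulated counts, 200 genes were changed by a log2 fold change of 2. The spread was the common biological coefficient of variation, 0.394 over whole sections and 0.242 in Myl7-rich spots. There edgeR recovered 23.5% over whole sections (14346 genes, 1 false call) and 69.5% in Myl7-rich spots (12621 genes, 12 false calls). DESeq2 recovered 42.5% over whole sections with 8 false calls, and 35.5% in Myl7-rich spots with 0 false calls. Recovery at the members' own spread was not tested. Named genes were the members, Myl7, the partner isoforms, and for the other lists the called genes and the 3 of highest level. Likeness was the mean Pearson correlation across spots of log counts scaled to 10000 per spot. Alternatives were other scalings, filters, thresholds, denominators and each section left out.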

Additional observations from a re-analysis of the deposited data

Results flagged for a closer look

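For 1 level and 6 ratios the V-over-NV difference had opposite signs in the male and the female pair, and in no case was the difference between the pairs tested. The level of Cox7a1 was 0.38 higher on the log2 scale in V female than in NV female and changed by -7.07 between NV male and V male. All ratios of V male rest on 24 Myl7 UMIs. In UMIs per 100 Myl7 UMIs, Cox6a2 had a log2 difference of -0.17 in the female pair and 5.79 in the male pair, Tnnc1 of -0.049 and 4.25, and Hamp, with 7 UMIs in V male, of -0.33 and 1.33. Myoz2 had -0.15 and 0.10, Ckmt2 0.30 and -0.76, and Csrp3 0.040 and -0.33, with 1, 1 and 3 UMIs in V male.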

How the results depend on the processing

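The number of genes called over whole sections was 0 under DESeq2 size factors, no filter on low counts, no fold threshold, spots of at least 500 UMIs and the replicate block, and 8 with DESeq2's Wald test. With 1 section left out it ran from 0 to 811. Replicate numbers mark only the sex: deviations from the group means correlated at r = 0.31 over 14570 genes in the 2 pairs, and the fit with the replicate block called 0 genes (413 at an unadjusted p under 0.05). In Myl7-rich spots 68 genes were called, 15 with DESeq2's Wald test, 37 at a Myl7 threshold of 1000, 176 at 5000 and 167 with Tnni3 at 1000. No replicate block and no fit without a section was possible there, since 3 sections remained. The ratio to Myl7 did not overlap between groups for 3 members (Cox7a1, Ckm and Fabp3), all higher in V. With the summed cardiac markers as denominator there were 6 such members (91.3% of all genes). Cox7a1 and Fabp3 then lay above both NV sections, Myoz2, Lrrc10, Hamp and Csrp3 lay below, and Ckm overlapped. In Myl7-rich spots, where V is 1 section, there were 8 (52.8%). With 1 section left out the number ran from 4 to 10 (94.2% to 99.5%). The causes of these moves were not tested. The members' log2 fold changes over whole sections were below 0 for all 10 members under every alternative run but that without V male, where 9 were. Their median was -3.95 under the replicate block. In Myl7-rich spots their median was -0.41 in the main fit, -0.55 at a Myl7 threshold of 5000 and -0.60 with Tnni3 at 1000. It was -0.0039 at a Myl7 threshold of 1000, where 29 of 30 enrichment ratios reached 2. The alternative of leaving out spots with a Myl7 UMI from the fat comparison was not run, since 1 adipocyte-marker-rich spot of V female remained.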
